A study of Mus musculus with 6 samples.

Results

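The genes described here encode the proteasome, its immunoproteasome variant and the factors that bind or build it, in C2C12 myotubes given RANKL. Members were all gene symbols of the count table that begin with Psm, a letter from a to g and a digit, which gave 46 of 12625 genes. One of them, Psmc3ip, encodes a recombination factor that carries the name only because it binds Psmc3, so 45 are genes of the proteasome system. These comprised 7 alpha and 7 constitutive beta subunits of the 20S core, 1 immunoproteasome subunit (Psmb10), 6 ATPases and 14 other genes of the 19S regulatory particle, 5 activators, and 5 genes for an inhibitor and assembly chaperones. Psma8, Psmb8, Psmb9 and Psmb11 were not analysed here.

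C2C12 cells are mouse myoblasts of an established line, which fuse to myotubes in culture. After 5 days of differentiation, 3 libraries came from myotubes given 100 ng per ml of recombinant murine RANKL for 72 h and 3 from myotubes given vehicle. RANKL, or TNFSF11, is a TNF family cytokine best known for driving osteoclast formation. All 6 libraries come from this 1 cell line. Nothing in the labels says that replicates were separate cultures, so the p-values cover no more than the spread among these samples, and that spread may be technical.

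The proteasome is the barrel-shaped protease that degrades ubiquitin-tagged proteins. In its 20S core, rings of alpha subunits gate the entrance and rings of beta subunits carry the active sites: Psmb5 cuts after hydrophobic, Psmb6 after acidic and Psmb7 after basic residues. Inflammatory cytokines can replace these with the immunoproteasome subunits Psmb8, Psmb9 and Psmb10, where Psmb10 takes the place of Psmb7, and can add the activator made of Psme1 and Psme2; the peptides produced feed MHC class I molecules. In skeletal muscle the proteasome removes myofibrillar proteins during wasting.

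Total counts lay between 32732604 and 37445933 in RANKL libraries and between 33566746 and 39677999 in vehicle libraries. Of 14 myotube markers 13 were measured, with summed levels of 29190 to 29870 CPM in RANKL libraries and 31140 to 33760 CPM in vehicle libraries, where CPM are counts scaled to a common library total. As CPM per kilobase of gene (RPKM), the sums were 14050 to 14560 under RANKL and 14700 to 15070 under vehicle. The long gene Ttn, which did not pass, ran from 3082 to 5425 CPM in vehicle libraries. Of these 13, 6 were called lower (edgeR adjusted p under 0.05), against 7.5% of all genes, with Acta1 at 5325 ± 128 CPM under RANKL and 6072 ± 57.0 CPM under vehicle. Log2 fold changes were negative in 9 of the 13 and positive in 4 (Tnnt3 0.05, Ckm 0.04, Mylpf 0.03 and Myog 0.0069), none of which passed. Of 8 fibroblast markers 6 were measured, and their sum was 4902 to 5481 CPM under RANKL and 4427 to 4680 CPM under vehicle, with Col3a1 called higher. Of 15 macrophage and osteoclast markers 4 were measured (Cd68, Itgam, Cd14 and Mmp9), with sums of 6.73 to 7.64 CPM under RANKL and 5.04 to 5.42 CPM under vehicle and Mmp9 called higher. The call of Mmp9 rested on 24 to 31 counts under RANKL and 4 to 13 under vehicle. With at least 1 CPM in 3 libraries required, 1 of the 4 was tested and 0 were called. Of 6 endothelial markers 2 were measured, at 1.73 to 2.34 CPM under RANKL and 1.77 to 2.55 CPM under vehicle, and edgeR, DESeq2 and limma called 0 of them (0 also at an unadjusted p under 0.05). Beside these marker calls, edgeR called 5.35% of all genes higher and 7.5% lower. At an unadjusted p under 0.05 these shares were 12.6% and 14.5%. Ptprc, Csf1r, Adgre1, Pecam1 and the 9 lymphocyte and dendritic markers were not analysed here. In bulk RNA, fewer cells of a type and less RNA per cell cannot be told apart, and the part of such shifts in the results was not tested.

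RANKL was followed by higher RNA of the immunoproteasome subunit Psmb10 and, by less, of Psme2, Psma5 and Psmb1, while the other 42 members did not pass the test. Psmb10 was 1.46-fold higher, Psme2 1.19-fold, Psma5 1.09-fold and Psmb1 1.08-fold. By edgeR's quasi-likelihood test, at a threshold of 0.05 on the adjusted p, 4 of 46 members were called higher, against 5.35% of all genes. No member was called lower, against 7.5% of all genes; at an unadjusted p under 0.05 there were 2 lower members, Psmd3 and Psmd9, and DESeq2 and limma also called 0 lower. At an unadjusted p under 0.05, 8 of 46 members were higher and 2 lower, against 12.6% and 14.5% of all genes. In 13 of 46 members every RANKL library lay above every vehicle library, against 14.9% of all genes. In 3 of 46 (Psmc4, Psmd3 and Psmd9) every RANKL library lay below, against 16.6% of all genes. The share of members called higher, 4 of 46, is near the share among all genes. It was 1 (Psmb10) without RANKL replicate 2, vehicle replicate 1 or vehicle replicate 2, and 2 (Psmb10 and Psme2) with the trend on gene length or GC content removed. With total count scaling it was 6, adding Psmb4 and Psmd10, and 63.1% of all calls were higher, against 41.7% with TMM scaling. The median log2 fold change of the 46 was 0.03, beside 0.0047 over all genes. Of the 46, 17 have another annotated transcript with at least 90% identity over at least 200 bases, mostly pseudogenes, so some of their reads can be counted elsewhere.

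Promoter windows are shown for Psmb10 and Psme2, the members with the largest called fold changes, with Psme1, which pairs with Psme2 in the activator, and Psmb5, a constitutive catalytic subunit. Each runs from 250 bases before to 50 after the RefSeq start on GRCm38.p6 (mm10), 5′ to 3′ on the gene's strand, and capitals mark motif matches.
Psmb10: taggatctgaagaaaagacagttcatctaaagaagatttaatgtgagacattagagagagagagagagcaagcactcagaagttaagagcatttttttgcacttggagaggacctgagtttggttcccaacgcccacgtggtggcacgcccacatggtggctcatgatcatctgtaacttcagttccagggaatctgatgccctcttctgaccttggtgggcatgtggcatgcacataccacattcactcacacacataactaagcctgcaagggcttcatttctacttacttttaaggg
Psme2: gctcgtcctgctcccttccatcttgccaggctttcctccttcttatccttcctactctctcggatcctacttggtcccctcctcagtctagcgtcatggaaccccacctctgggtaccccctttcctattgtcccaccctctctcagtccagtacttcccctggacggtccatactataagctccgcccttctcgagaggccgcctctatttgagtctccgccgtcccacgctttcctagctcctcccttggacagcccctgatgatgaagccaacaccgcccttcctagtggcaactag
Psme1: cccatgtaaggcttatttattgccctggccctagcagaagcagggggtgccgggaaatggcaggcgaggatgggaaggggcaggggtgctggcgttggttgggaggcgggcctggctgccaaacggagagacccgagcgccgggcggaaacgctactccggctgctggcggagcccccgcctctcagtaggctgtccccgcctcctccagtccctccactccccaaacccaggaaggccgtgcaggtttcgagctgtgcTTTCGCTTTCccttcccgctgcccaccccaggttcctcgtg
Psmb5: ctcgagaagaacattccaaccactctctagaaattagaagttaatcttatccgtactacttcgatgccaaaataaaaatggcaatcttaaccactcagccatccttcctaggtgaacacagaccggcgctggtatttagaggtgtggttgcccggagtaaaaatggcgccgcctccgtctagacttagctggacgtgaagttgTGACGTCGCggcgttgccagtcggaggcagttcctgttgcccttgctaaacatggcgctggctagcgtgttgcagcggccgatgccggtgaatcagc
The windows lie at chr8:105938343-105938642 on the minus strand for Psmb10, chr14:55591052-55591351 on the minus strand for Psme2, chr14:55578244-55578543 on the plus strand for Psme1 and chr14:54617946-54618245 on the minus strand for Psmb5. GENCODE places the start of Psmb10 at base 105938444, inside this window but upstream of the RefSeq start. The GENCODE gene Psme1 begins at base 55578123, upstream of the whole printed window, so that window and its marked element lie inside the GENCODE gene.

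Motifs were searched on both strands in the windows of 39 members and of 9625 genes of the table: the kappa B consensus of NF-kB, the interferon-stimulated response element (GAAA, then any 2 bases, then GAAA), the gamma-activated site TTCNNNGAA, the antioxidant response element TGACNNNGC, which Nfe2l1 and Nfe2l2 bind, and the CCAAT box. No pattern contains another, though matches may share bases. Of these letters, the window of Psmb10 and both RefSeq windows of Psme2 held none. In Psme1 the capitals mark an interferon-stimulated response element that begins 10 bases after the start, and in Psmb5 an antioxidant response element that begins 47 bases before it. The interferon-stimulated element was present in 5 of 39 members (Psmb3, Psmd4, Psmd9, Psme1 and Psmg4) and in 3.53% of all genes with a window. The kappa B consensus was present in 6 of 39 members, among them Psma6, Psma7 and Psme4, and in 12.4% of all genes. The antioxidant element was present in 6 of 39 members and in 17% of all genes, CCAAT in 13 of 39 and in 42.9%, and the gamma-activated site in 2 of 39 and in 8.17%. A match describes letters only, and no match says only that these letters are not in this window.

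In the core's active sites, Psmb10 was the member that moved most. Psmb10, the trypsin-like subunit of the immunoproteasome, had 10.7, 11.8 and 10.2 CPM in RANKL libraries 1, 2 and 3 and 7.67, 7.36 and 7.39 CPM in vehicle libraries 1, 2 and 3. Each of the RANKL libraries exceeded each vehicle library. The raw counts behind them were 405, 402 and 337 under RANKL and 298, 245 and 273 under vehicle. Means were 10.9 ± 0.832 CPM under RANKL and 7.47 ± 0.167 CPM under vehicle (SD, n = 3 each), a log2 fold change of 0.54 ± 0.08 (SE) with edgeR's adjusted p of 0.000555. The 95% interval of the fold ran from 1.29 to 1.64. Psmb10 lies on chromosome 8 from 105935735 to 105938444 on mm10, its exons overlap no other annotated gene, and no other GENCODE transcript shared at least 90% identity with it over at least 200 bases. The call held in 15 of 15 alternatives, with log2 fold changes from 0.49 to 0.59.

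The constitutive catalytic subunits did not pass the test. Psmb7, which Psmb10 replaces, had 170.0, 182 and 181 CPM under RANKL and 164, 173.5 and 175 CPM under vehicle, and the groups overlapped. Its log2 fold change was 0.05 ± 0.04 (edgeR adjusted p = 0.376, 95% interval -0.02 to 0.13). Removing the trend on gene length turned it to -0.011, and removing the trend on GC content to -0.0075. Over all genes the median was -0.013 and -0.016 under these removals. The exons of Psmb7 overlap those of Nek6 on the opposite strand. Psmb5, the chymotrypsin-like subunit, had 50.4, 52.3 and 44.6 CPM under RANKL and 49.3, 47.8 and 50.8 CPM under vehicle, with RANKL library 3 the lowest of all 6. Its log2 fold change was -0.0062 ± 0.05 (edgeR adjusted p = 0.957, 95% interval -0.12 to 0.11), and the sign turned with total count scaling (0.02), with the GC trend removed (0.02) and without RANKL replicate 3 (0.06) or vehicle replicate 3 (0.02). With total count scaling the median over all genes was 0.04. The pseudogene Gm3375 shares 98.9% identity with Psmb5 over 796 bases. Psmb6, the caspase-like subunit, stood at 149 ± 2.77 CPM under RANKL and 145.6 ± 3.17 CPM under vehicle (log2 fold change 0.03 ± 0.03, edgeR adjusted p = 0.553), and at -0.03 with the length trend removed.

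**Figure D1:**
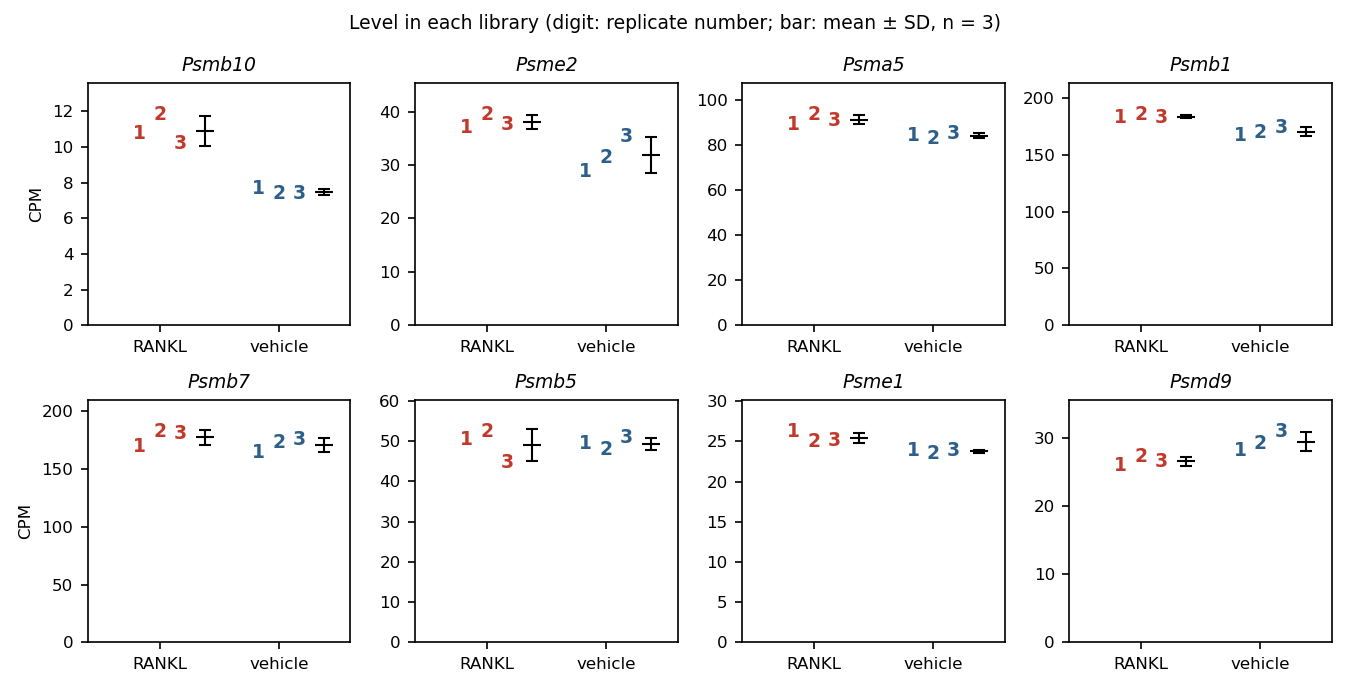
CPM of 8 proteasome genes in each library, with the digit giving the replicate number and the bar the mean ± SD of 3 libraries. Psmb10 sits at 10.2 to 11.8 CPM in RANKL libraries and 7.36 to 7.67 CPM in vehicle libraries, while the points of Psmb7 and Psmb5 overlap.

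Set against Psmb7 within each library, Psmb10 took a larger part under RANKL. Per length, the level of Psmb10 was 4.85%, 4.97% and 4.32% of that of Psmb7 in RANKL libraries and 3.59%, 3.26% and 3.24% in vehicle libraries. The groups do not overlap, and this ratio does not depend on library scaling. From the counts, the mean log2 ratio was higher by 0.49 under RANKL, which is 1.40-fold (exact two-sided permutation test, p = 0.1, the smallest p that 3 against 3 libraries allow). At 8.64 ± 0.655 RPKM (CPM per kilobase of gene) under RANKL and 5.93 ± 0.132 RPKM under vehicle, Psmb10 stayed far below Psmb7, which was at 183 ± 6.89 RPKM under RANKL and 176.5 ± 6.11 RPKM under vehicle. Relative to Psmb5, Psmb10 stood at 14.7%, 15.6% and 15.7% under RANKL and 10.7%, 10.6% and 10.1% under vehicle, likewise without overlap.

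Among the other constitutive beta subunits, Psmb1 was called higher. Psmb1, a structural subunit without an active site, had 183, 186 and 183 CPM under RANKL and 167, 169.5 and 175 CPM under vehicle, with no overlap. Its log2 fold change was 0.11 ± 0.03 (edgeR adjusted p = 0.0323). The call ended with the trend on GC content or gene length removed, and without RANKL replicate 2, vehicle replicate 1 or vehicle replicate 2. Under the trend removals the log2 fold change was 0.09 and 0.05. Psmb4, another structural subunit, stood at a log2 fold change of 0.11 ± 0.04 (edgeR adjusted p = 0.0646) and was called with total count scaling and without vehicle replicate 3, while Psmb2 and Psmb3 stood at -0.04 ± 0.04 and 0.03 ± 0.04. Over the 7 constitutive beta genes, 1 was called higher and 0 lower, against 5.35% and 7.5% of all genes. At an unadjusted p under 0.05, 2 were higher and 0 lower, against 12.6% and 14.5% of all genes. DESeq2 and limma called the same 1, and the median log2 fold change was 0.03.

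The 7 alpha genes all had positive log2 fold changes, between 0.06 for Psma6 and 0.12 for Psma5, with a median of 0.08 against 0.0047 over all genes. Of all genes 51.7% had a positive value. Psma5 was the 1 of 7 that passed, against 5.35% of all genes called higher. It had 89.4, 93.7 and 91.2 CPM in RANKL libraries and 84.5, 83.0 and 85.2 CPM in vehicle libraries. No RANKL library of Psma5 reached down to the vehicle range (log2 fold change 0.12 ± 0.03, edgeR adjusted p = 0.0321). Psma1, Psma2, Psma3, Psma4, Psma6 and Psma7 had edgeR adjusted p from 0.148 to 0.305. The groups did not overlap in 5 of 7 alpha genes, all with RANKL above vehicle, against 14.9% of all genes. Summed over the 7, levels were 704, 729 and 719.9 CPM under RANKL and 657, 688 and 694 CPM under vehicle, with vehicle library 1 the lowest.

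The alpha values moved with gene properties and with 1 library. The median gene length implied by the deposited values was 1.22 kb for the alpha genes and 2.93 kb over all genes. With the trend on gene length removed, the alpha median was 0.03 (-0.013 over all genes); with the GC trend removed it was 0.02 (-0.016 over all genes); and without vehicle replicate 1 it was 0.04. The call of Psma5 ended under both trend removals (log2 fold change 0.07 and 0.10), with DESeq2, and without RANKL replicate 2 or any 1 vehicle replicate. Psma5 shares exons with 1700010K24Rik on the opposite strand and 98.6% identity over 952 bases with the pseudogene Gm8394.

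**Figure D2:**
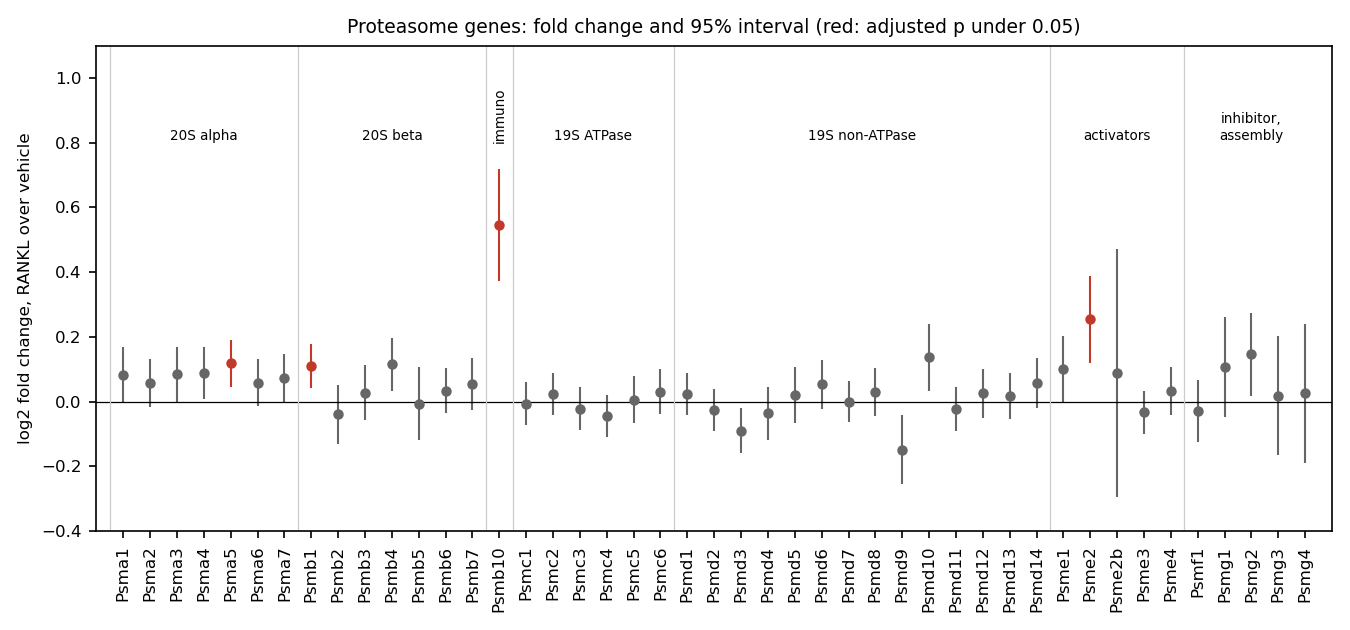
Log2 fold change of RANKL over vehicle with its 95% interval for the 45 proteasome genes, grouped by role; red marks an adjusted p under 0.05. Psmb10 stands at 0.54 and Psme2 at 0.25, and the other 43 lie between -0.15 and 0.15.

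Genes of the 19S particle, which recognises ubiquitin chains and unfolds substrates, gave no call in the main test. Of its 20 genes edgeR called 0, against 5.35% of all genes called higher and 7.5% lower. At an unadjusted p under 0.05, 1 was higher and 2 lower, against 12.6% and 14.5% of all genes. DESeq2 and limma called 0 of the 20. The 6 ATPases, the motor ring, had log2 fold changes from -0.046 (Psmc4) to 0.03 (Psmc6), with a median of -0.0001. Their 95% intervals together spanned -0.11 to 0.10. Psmc4 had 133, 134 and 132 CPM under RANKL and 138, 136 and 137 CPM under vehicle. Although its groups did not overlap, it did not pass (log2 fold change -0.05 ± 0.03, edgeR adjusted p = 0.365).

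Among the 14 other 19S genes, log2 fold changes ran from -0.15 to 0.14 with a median of 0.02. The scaffold subunits Psmd1 and Psmd2 stood at 0.02 ± 0.03 and -0.03 ± 0.03, and Psmd7, which forms a pair with the deubiquitinase Psmd14, at -0.0011 ± 0.03. Psmd14 itself was at 0.06 ± 0.04 (edgeR adjusted p = 0.328) and the ubiquitin receptor Psmd4 at -0.04 ± 0.04 (edgeR adjusted p = 0.594). The lowest value belonged to Psmd9, a chaperone that helps build the ATPase ring, with 26.0, 27.3 and 26.6 CPM under RANKL and 28.2, 29.3 and 31.0 CPM under vehicle. Psmd9 did not pass (log2 fold change -0.15 ± 0.05, edgeR adjusted p = 0.0684). With the length trend removed, Psmd9 (edgeR adjusted p = 0.028) and Psmd3 were called lower. Psmd3, a lid subunit, had 238, 235 and 225 CPM under RANKL and 252, 243 and 248 CPM under vehicle (log2 fold change -0.09 ± 0.03, edgeR adjusted p = 0.0849). The highest was Psmd10 (gankyrin), another such chaperone, at 35.2 ± 1.57 CPM under RANKL and 32.0 ± 1.05 CPM under vehicle (log2 fold change 0.14 ± 0.05, edgeR adjusted p = 0.0778), and it was called with total count scaling and without RANKL replicate 1. Psmd5, a chaperone of the same kind, had a log2 fold change of 0.02 ± 0.04.

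Activators open the core without the 19S particle. Psme2, a subunit of the cytokine-inducible activator, had 37.0, 39.5 and 37.6 CPM in RANKL libraries and 28.8, 31.5 and 35.4 CPM in vehicle libraries. The groups do not overlap, but vehicle library 3 came close to the RANKL range. The log2 fold change was 0.25 ± 0.06 (edgeR adjusted p = 0.0159, 95% interval of the fold 1.09 to 1.31). Its call ended without RANKL replicate 2, vehicle replicate 1 or vehicle replicate 2, with log2 fold changes of 0.23, 0.18 and 0.25, and held in the other 12 of 15 alternatives. Psme2b, a gene on chromosome 11 with 99.4% identity to Psme2 over 794 bases, had 1.97 to 2.36 CPM under RANKL and 1.65 to 2.59 CPM under vehicle. Since reads of the pair can be split between them, the counts of both were also summed, a step chosen after seeing the data, which gave 0.24 (edgeR adjusted p = 0.0167).

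Psme1, the partner of Psme2, had 26.2, 25.0 and 25.1 CPM under RANKL and 23.8, 23.5 and 23.9 CPM under vehicle. Although no library of one group fell within the other, it did not pass (log2 fold change 0.10 ± 0.05, edgeR adjusted p = 0.198), and its exons overlap those of Emc9 on the opposite strand. Per length, Psme2 stood at 141%, 158% and 149% of Psme1 under RANKL and 121%, 134% and 148% under vehicle, with RANKL library 1 below vehicle library 3. The nuclear activators did not pass either: Psme3 had a log2 fold change of -0.03 ± 0.03 (edgeR adjusted p = 0.541) and Psme4 of 0.03 ± 0.03 (edgeR adjusted p = 0.596).

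The inhibitor Psmf1 and the chaperones Psmg1 to Psmg4, which build the alpha ring, were not called by edgeR, DESeq2 or limma. That is 0 of 5, against 5.35% of all genes called higher and 7.5% lower by edgeR. At an unadjusted p under 0.05, 1 was higher and 0 lower, against 12.6% and 14.5% of all genes. The median log2 fold change of the 5 was 0.025. Psmg2 had 18.6, 18.2 and 20.4 CPM under RANKL and 16.9, 17.2 and 17.6 CPM under vehicle, without overlap (log2 fold change 0.15 ± 0.06, edgeR adjusted p = 0.13). Psmf1 stood at -0.03 ± 0.04, and Psmg1, Psmg3 and Psmg4 at 0.11 ± 0.07, 0.02 ± 0.09 and 0.02 ± 0.10. Psmc3ip, the member outside the proteasome, had a log2 fold change of 0.12 ± 0.15 (edgeR adjusted p = 0.651).

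Per length, most core and 19S genes stood well above the median gene of these myotubes. In vehicle libraries the constitutive beta genes spanned 56.7 RPKM (Psmb5) to 176.5 RPKM (Psmb7), the alpha genes 59.5 RPKM (Psma1) to 117.5 RPKM (Psma2) and the ATPases 95.6 RPKM (Psmc4) to 292 RPKM (Psmc3), against a median of 9.33 RPKM over all 12625 genes. Psmb10 at 5.93 RPKM and Psme2b at 1.97 RPKM lay below that median, as did no other of the 45 genes. The 3 chaperones of the ATPase ring, Psmd9 at 11.4, Psmd10 at 22.0 and Psmd5 at 23.8 RPKM, were the lowest of the 19S genes. In vehicle libraries Psme1 and Psme2 had 24.4 ± 0.187 and 32.7 ± 3.38 RPKM (SD, n = 3), below Psme3 at 54.0 and Psme4 at 65.6 RPKM.

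**Figure D3:**
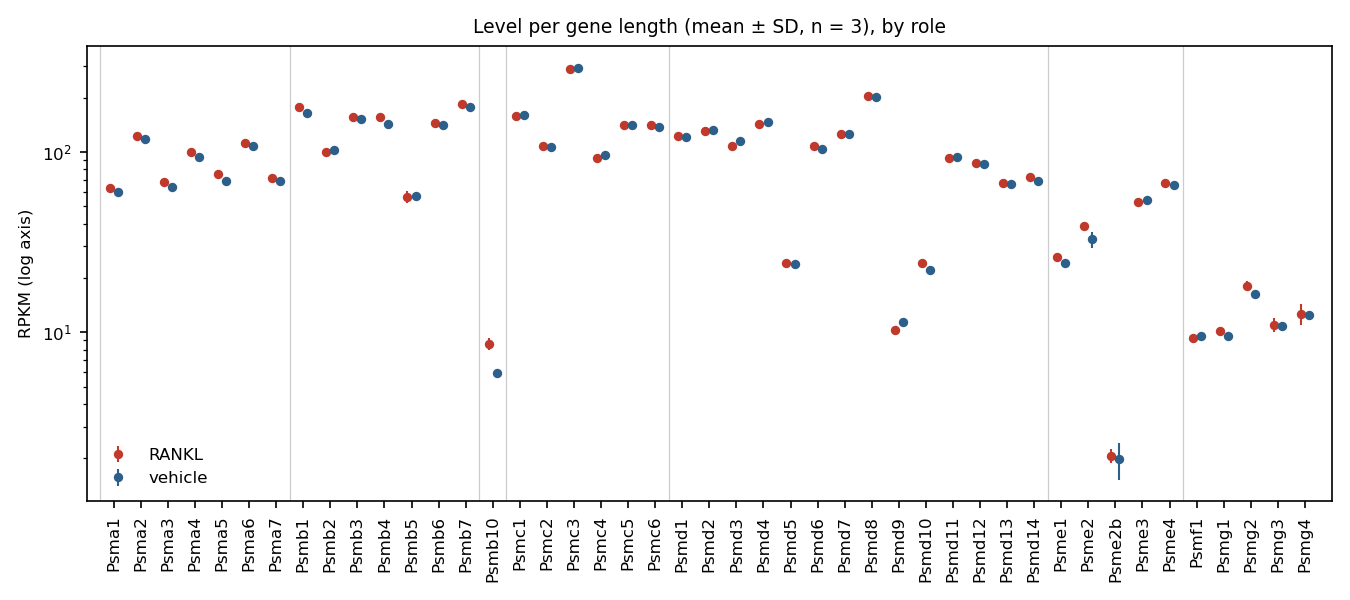
Level of each proteasome gene per length (RPKM, log axis, mean ± SD of 3 libraries) in RANKL and vehicle libraries, by role. Most subunits of the core and the 19S particle lie between 56.7 and 292 RPKM in vehicle libraries, while Psmb10 lies at 8.64 RPKM under RANKL and 5.93 RPKM under vehicle.

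The median variation between replicates was small. The median within-group SD of log2 CPM was 0.04 over the 45 genes and 0.07 over all genes, and 0.04 over genes at least as abundant as the 20th percentile of the members, so members and genes of like level differ little in it. Summed over the 45 genes, levels were 6233, 6329 and 6301 CPM under RANKL and 6110, 6222 and 6274 CPM under vehicle. Here RANKL library 1 fell below vehicle library 3, so the groups overlapped. Summed levels of the 20 genes of the 19S particle were 3916, 3962 and 3942 CPM under RANKL and 3906, 3954 and 3981 CPM under vehicle, also overlapping.

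**Figure D4:**
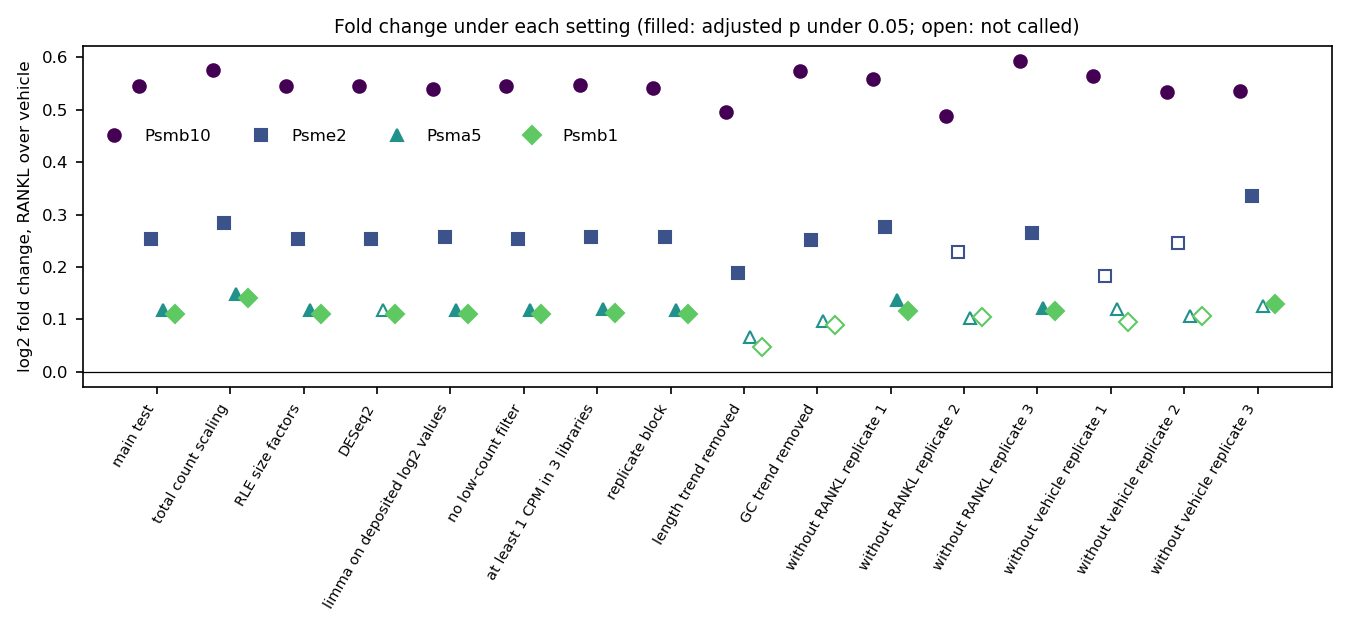
Log2 fold change of RANKL over vehicle for the 4 called members in the main test and 15 alternatives; filled symbols mark an adjusted p under 0.05. Psmb10 is filled throughout at 0.49 to 0.59, whereas Psme2 is open in 3 settings, Psmb1 in 5 and Psma5 in 7.

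Of 13 measured genes listed as immunoproteasome regulators (transcription factors, receptor chains and kinases), 7 were called higher by edgeR, against 5.35% of all genes. At an adjusted or an unadjusted p under 0.05, 0 were lower, and DESeq2 and limma also called 0 lower. The median log2 fold change was 0.28 against 0.0047 over all genes. This and the other gene lists were chosen with earlier results of these data known, so such shares only describe the listed genes. Irf1, the interferon regulatory factor that binds immunoproteasome promoters, had 42.3 ± 0.712 CPM under RANKL and 27.8 ± 1.02 CPM under vehicle (n = 3 each), a log2 fold change of 0.60 ± 0.04 (edgeR adjusted p = 7.83e-07). Both chains of the interferon gamma receptor rose, Ifngr1 by 0.54 ± 0.05 and Ifngr2 by 0.27 ± 0.04 on the log2 scale, as did the kinase Jak2 (0.34 ± 0.05). The noncanonical and canonical NF-kB subunits Relb, Nfkb2 and Nfkb1 rose by 0.60 ± 0.05, 0.34 ± 0.03 and 0.28 ± 0.03, and these 7 calls held in 15 of 15 alternatives. Exons of Nfkb2 overlap those of Psd, and exons of Irf1 those of Gm17334, on the opposite strand. Rela, Jak1, Irf2, Irf7, Irf9 and Nlrc5, the transactivator of MHC class I genes, did not pass, and Nlrc5 had 1.56 ± 0.359 CPM under RANKL and 1.19 ± 0.116 CPM under vehicle (edgeR adjusted p = 0.218).

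Downstream of the proteasome, 6 of 14 genes of peptide trimming, transport and class I loading were called higher and 1 lower, against 5.35% and 7.5% of all genes, with a median log2 fold change of 0.07 against 0.0047 over all genes. With the length trend removed 4 were called higher and 3 lower, adding the chaperone Calr and the aminopeptidase Npepps as lower, and Npepps was also called lower with the GC trend removed. In the main test Npepps had 234 ± 4.86 CPM under RANKL and 250.2 ± 6.51 CPM under vehicle, without overlap, and did not pass (log2 fold change -0.10 ± 0.03, edgeR adjusted p = 0.0646). Erap1, which trims peptides in the endoplasmic reticulum, rose, at 24.6 ± 1.33 CPM under RANKL and 19.3 ± 0.393 CPM under vehicle (log2 fold change 0.35 ± 0.06, edgeR adjusted p = 0.000997). Its exons overlap those of Cast on the opposite strand. The class I heavy chains H2-D1 and H2-K1 rose by 0.34 ± 0.06 and 0.30 ± 0.05, and the loading factor Tapbp, whose exons overlap those of Zbtb22, by 0.31 ± 0.04. Near-identical copies were searched for the 46 members only, so copies of H2-D1 and H2-K1 were not checked. The light chain B2m rose by 0.11 ± 0.03, and was not called with the length trend removed (log2 fold change 0.04), with the GC trend removed (0.05), with limma, or without RANKL replicate 2 or vehicle replicate 1 or 2. For the peptide transporter, Tap2 rose by 0.36 ± 0.11 and was called in 7 of 15 alternatives. Its exons overlap those of Gm15821 and Gm20496 on the opposite strand. Its call ended with DESeq2, with limma and with the length trend removed. It also ended without RANKL replicate 2 or 3 or any 1 vehicle replicate. Tap1 was at 0.48 ± 0.24 and did not pass (edgeR adjusted p = 0.216), and its exons overlap those of Psmb9 on the opposite strand. Thop1, a cytosolic peptidase that destroys antigenic peptides, fell by 0.14 ± 0.04, and was not called with total count scaling, the GC trend removed, or without RANKL replicate 3 or vehicle replicate 1 or 3.

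Calls were also counted among other proteasome partners, regulators of constitutive subunits and ubiquitin genes. Of all genes, edgeR called 5.35% higher and 7.5% lower, with 12.6% and 14.5% at an unadjusted p under 0.05. Of 17 measured partners, including the chaperone Pomp, the lid subunit Shfm1, the ubiquitin receptor Adrm1, the deubiquitinases Usp14 and Uchl5 and the unfoldase Vcp, edgeR called 0, with 1 higher and 1 lower at an unadjusted p under 0.05, and DESeq2 and limma called 0. Removing the length trend called Zfand5 higher and Akirin2 lower, and removing the GC trend called Akirin2 and Rad23b lower. Over all genes these settings gave 692 and 546 higher and 1216 and 1152 lower, beside 676 and 947 in the main test. In the main test, log2 fold changes of the 17 partners ran from -0.09 (Akirin2) to 0.09 (Zfand5, a ubiquitin-binding activator of the proteasome, edgeR adjusted p = 0.107, called also with total count scaling). Pomp, which matures the core, had 83.2 ± 3.81 CPM under RANKL and 81.7 ± 3.53 CPM under vehicle. Among 8 genes around Nfe2l1, the factor that raises proteasome transcription when proteolysis is impaired, 1 was called lower, Mafg, a small Maf partner, with a log2 fold change of -0.15 ± 0.04 (edgeR adjusted p = 0.0236). Mafg shares exons with Sirt7, and its call ended with total count scaling and without RANKL replicate 2 or vehicle replicate 1 or 3. Nfe2l1 itself stood at 1226 ± 20.7 CPM under RANKL and 1191 ± 22.7 CPM under vehicle (log2 fold change 0.04 ± 0.03, edgeR adjusted p = 0.427), and Nfe2l2 at 0.02 ± 0.03. Of 6 ubiquitin and E1 genes 0 were called by edgeR, DESeq2 and limma, with 1 higher and 1 lower at an unadjusted p under 0.05, and Rps27a, a ubiquitin and ribosomal fusion, had the smallest p (log2 fold change 0.14 ± 0.05, edgeR adjusted p = 0.0784). It was called with total count scaling, with the replicate number as a block, and without RANKL replicate 1 or vehicle replicate 3.

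**Figure D5:**
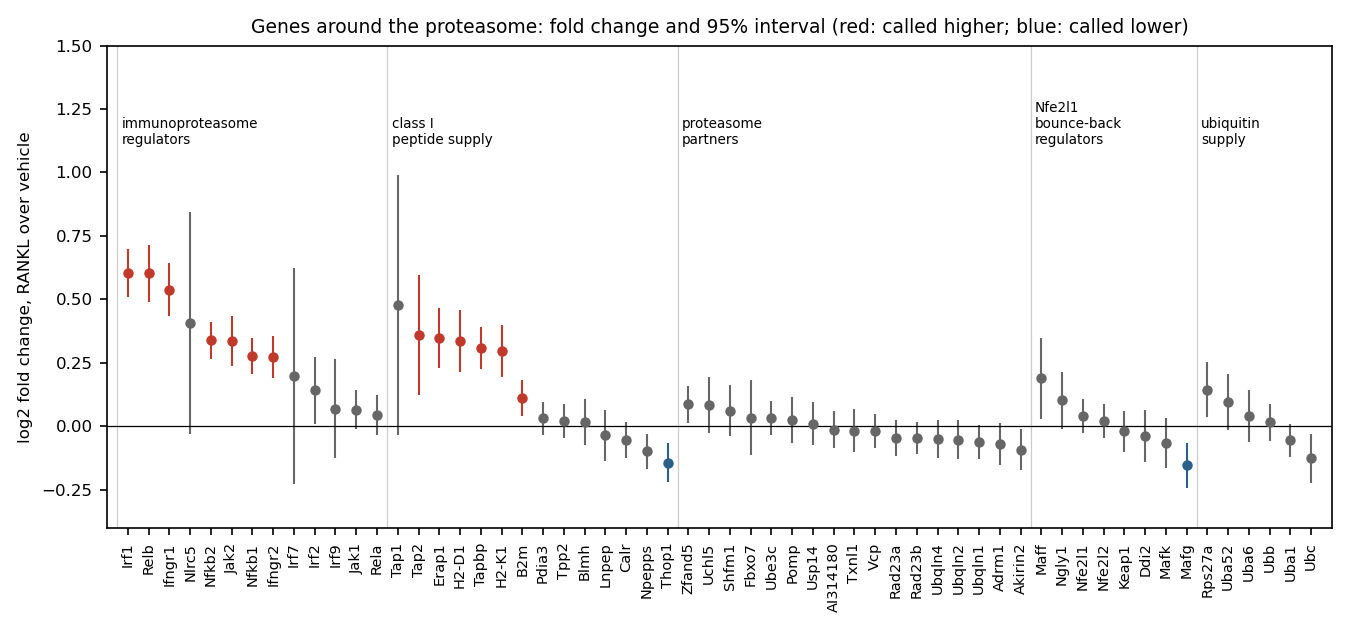
Log2 fold change of RANKL over vehicle with its 95% interval for 5 gene lists around the proteasome; red marks genes called higher and blue genes called lower. Called genes include Irf1 and Relb at 0.60 and Erap1 at 0.35, whereas the 17 proteasome partners lie between -0.09 and 0.09 and none is called.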

How the data were processed

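RNA was sequenced from 3 RANKL and 3 vehicle libraries of C2C12 myotubes, and groups were taken from the labels. Per the submitters' processing notes, the tools FastQC, STAR and edgeR and the build mm10 are listed, with no version or role given. The read counter, its annotation and its use of strand are not stated in the sources used here. The raw table deposited by the authors gives counts, in whole numbers, for 12625 genes, with 4708 further lines that name no gene and were left out. The authors also deposited a table of log2 values. Read against the counts, these are log2 RPKM with library scaling (the difference from log2 CPM had a median SD over libraries of 6.15e-05), a reading that rests on the values. RPKM is printed as 2 to the power of these values.

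Counts were tested with edgeR 4.0.16 (R 4.3.3) using TMM scaling, filterByExpr (0 genes removed), its quasi-likelihood test and adjustment by Benjamini and Hochberg over all 12625 genes, with a threshold of 0.05. The SE of a log2 fold change was computed as its absolute value over the root of the F statistic, and CPM uses scaled totals. The ratio of Psmb10 to Psmb7 was formed after adding 0.5 to each count. DESeq2 1.42.0, limma 3.58.1 on the log2 values, other scalings and filters, removal of length or GC trends and leaving out each library were the alternatives. The steps were checked on simulated data. Members and gene lists were chosen with earlier results of these data known. The naming rule took every member past the threshold, the catalytic subunits, Psme1 and Psme2, the member with the smallest p in each group or list without a call, and all called genes of the pathway lists, of which 1 is not reported here and was left out of its list; other members named with values were taken beyond it, after their values were seen. Positions come from GENCODE M21 on mm10, which matched 12176 symbols directly and 386 by an older name, and 63 found no match. Promoter windows come from RefSeq. Within groups, the chi-square statistic of each pair of libraries, averaged over genes, was 3.42 to 9.62, and no p-value was computed. Pairs that held library 1 gave 5.80 to 9.62, and libraries 2 and 3 gave 3.42 under vehicle and 3.51 under RANKL. Pairs that differ by sampling alone would average near 1. No library was therefore taken as a copy of another, and all 6 were kept. Rn45s took 0.83% of counts in RANKL library 1 and 0.90% in vehicle library 1, and 0.56% to 0.65% in the others. The part of this difference in the results was not tested. Since the counting of shared reads is not stated, genes with overlapping exons or near-identical copies are uncertain.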

Additional observations from a re-analysis of the deposited data

How the results depend on the processing

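Of the 4 members called higher, Psmb10 was called under 15 of 15 alternative settings. The number of members called higher was 2 with the length trend removed and 2 with the GC trend removed, and 1 to 5 with 1 library left out. The number called lower was 2 with the length trend removed (Psmd3 and Psmd9), beside 0 in the main test. All genes called numbered 676 higher and 947 lower in the main test. With the length trend removed they numbered 692 and 1216, and with the GC trend removed 546 and 1152. Over all genes, total count scaling gave 1070 higher and 626 lower, so that 63.1% of calls were higher against 41.7% with TMM, and the median log2 fold change was 0.04 against 0.0047; leaving out 1 library gave 373 to 746 higher and 537 to 880 lower genes. Psmb5 turned positive with total count scaling (0.0244) and the GC trend removed (0.0237), and ranged from -0.0506 to 0.0594 with 1 library left out, positive without RANKL replicate 3 or vehicle replicate 3 (0.0154). Psmb6 turned negative with the length trend removed (-0.03), and Psmb7 with the length trend (-0.011) or the GC trend removed (-0.0075). The median over all genes was -0.013 with the length trend and -0.016 with the GC trend removed. The cause of these moves was not tested. The log2 ratio of Psmb10 to Psmb7 kept its direction throughout, at 0.45 to 0.55. The ratios of Psmb8 to Psmb5 and Psmb9 to Psmb6 were not run, since Psmb8 and Psmb9 were not analysed here. Same-numbered libraries deviated together weakly, with correlations of 0.07, 0.04 and 0.02, under the 0.1 that would pair them. Each library correlated best with its own number, a hint from the data only. For RANKL library 3 this was a near tie, at 0.01817 with vehicle library 3 and 0.01813 with vehicle library 2. With the replicate number as a block, 4 members were called higher and 0 lower, 730 genes higher and 1008 lower, and Rps27a was called. Of the low members, the 95% interval of Psme2b, with 64 to 86 counts in vehicle libraries, ran from -0.30 to 0.47 on the log2 scale; the part of depth in its width was not tested.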
